A study of Mus musculus with 27 samples.

Results

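The G1 cyclins Ccnd1, Ccnd2, Ccnd3, Ccne1 and Ccne2, the cyclin-dependent kinase inhibitors Cdkn1a, Cdkn1b, Cdkn1c and Cdkn2c, and the transcription factor gene Myc were followed in mouse liver across a reproductive cycle. They are 10 genes, chosen by name, of the 51826 genes listed in the count tables. All 10 were found by their Ensembl identifiers, and all 10 passed the filter on low counts.

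Whole livers of wildtype BALB/c mice, an inbred laboratory strain, were profiled by bulk RNA sequencing, with 1 library per animal and 27 animals at 7 stages. Nulliparous mice (NUL, 4 animals) were not pregnant and had no litters. All other females were mated when 10 to 12 weeks old, their litters were evened out in size, and livers were taken at lactation day 10 (LAC, 3 animals), at days 2, 4, 6 and 8 after their pups were weaned (involution days, ID2 with 3 animals, ID4 with 4, ID6 with 6 and ID8 with 3), or 4 weeks after weaning (REG, regressed, 4 animals). Pups were removed between days 10 and 14 of lactation. The labels describe the animals as age matched, and they name no engineered allele and no agent in any group. Each animal gave 1 time point, so every comparison is between different mice.

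D-type cyclins bind CDK4 and CDK6 and, together with cyclin E and CDK2, phosphorylate the retinoblastoma protein, which releases E2F factors to switch on genes of DNA replication. Inhibitors of the CIP/KIP family (p21, p27 and p57, encoded by Cdkn1a, Cdkn1b and Cdkn1c) and of the INK4 family (p18, encoded by Cdkn2c) restrain these kinases, and MYC drives growth and G1 entry. In the adult liver most hepatocytes are quiescent, cyclin D1 is the D-type cyclin known for induction when they re-enter the cycle, and p21 is known to restrain that entry.

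Each library held between 41120650 and 75664540 expected counts. The hepatocyte markers were abundant in every library, at a summed level of 91600 to 232000 CPM (the count scaled to library size). Pancreas genes summed to 1680 CPM in ID2_31 and 132 CPM in ID4_15, against 9.85 to 43.2 CPM in the other libraries. Erythroid genes summed to 19.9 to 35.0 CPM in ID8 and 53.1 to 264 CPM in ID6, against 335 to 1190 CPM in the other stages. Kupffer cell genes, which mark the resident macrophages of liver, summed to 606 to 666 CPM in ID4, 487 to 776 CPM in ID6 and at most 341 CPM in LAC, against 354 to 457 CPM in NUL. Fewer cells of a type and less RNA per cell cannot be told apart in bulk tissue. Title numbers under 200 occur in all 3 ID8 libraries, 2 of 3 ID2 libraries and 2 of 4 ID4 libraries and nowhere else, so this number range cannot be told apart from stage at ID8. All comparisons against NUL share the same 4 NUL libraries.

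In a joint test of any difference among the 7 stages, 7 of the 10 genes were called at an adjusted p under 0.05 (edgeR quasi-likelihood test, Benjamini-Hochberg over 16428 genes), where 27% of all genes tested were called. They were Ccnd1, Ccnd2, Ccne1, Cdkn1a, Cdkn1c, Cdkn2c and Myc. Ccnd3, Ccne2 and Cdkn1b were not called, with adjusted p of 0.243, 0.0983 and 0.73. Ccnd1 had the smallest adjusted p of the 10 genes, 4.85e-06. The joint call of Ccnd2 (adjusted p = 0.0292) was lost without LAC_213, LAC_240, NUL_226 or NUL_227 (0.0964, 0.0685, 0.05 and 0.0524). It was also lost with limma on log2(TPM + 1) and log2(TPM + 0.1) (0.141 and 0.115) and with the covariates for title number and clock gene expression (0.101 and 0.0671). The joint call of Cdkn1c (0.00543) was lost on the log2(TPM + 1) scale (0.198) and with a covariate for clock gene expression (0.102).

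**Figure D1:**
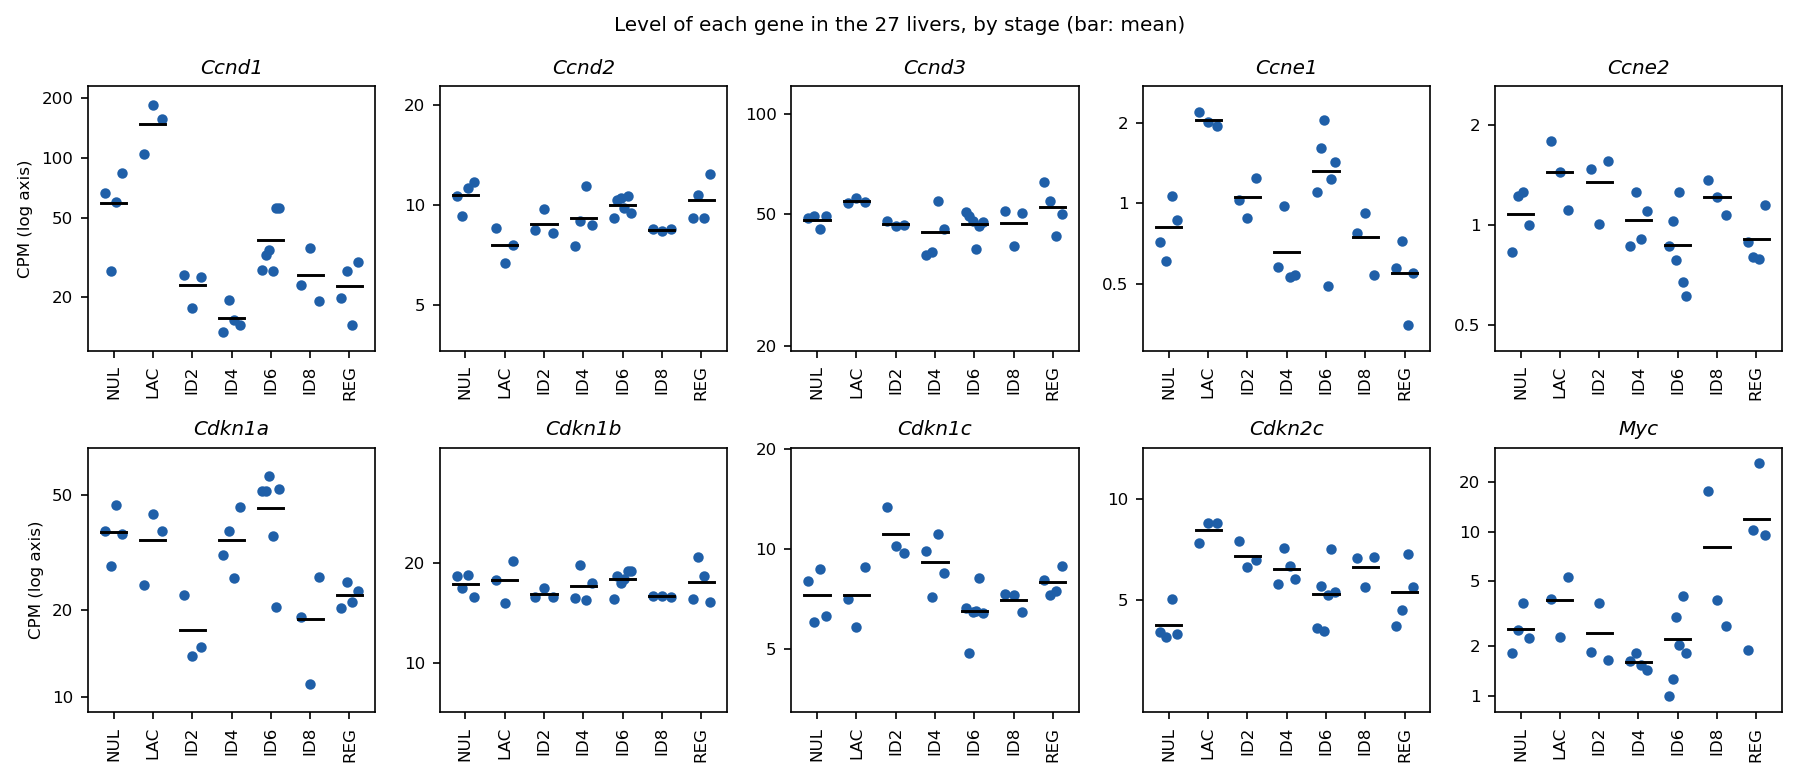
Level of each of the 10 genes in the 27 livers, as CPM on a log axis, by stage. Each point is 1 animal and each bar is the mean of its stage. Ccnd1 in the 3 LAC livers sits at 105 to 185 CPM, above all other livers, and Myc is spread from 1.89 to 26.0 CPM within REG.

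Cyclin D1 (Ccnd1, ENSMUSG00000070348, chromosome 7, 144929931 to 144939925, minus strand of GRCm38) rose in lactation, was low 2 and 4 days after weaning, and was higher again on day 6. The 4 NUL livers had 66.6, 26.8, 59.7 and 83.7 CPM, and the 3 LAC livers had 105, 185 and 157 CPM. The LAC values lie above all NUL values. Ccnd1 was 2.51-fold higher in LAC than in NUL (log2 fold change 1.33, SE 0.35, adjusted p = 0.0152). Without LAC_213, the highest liver, the log2 fold change was 1.14 and the adjusted p was 0.0827, and with only the LAC and NUL libraries in the fit the adjusted p was 0.123.

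Between lactation and the second day after weaning Ccnd1 fell below both the lactating and the nulliparous livers. The ID2 livers had 25.8, 17.6 and 25.2 CPM, all below every LAC liver and below every NUL liver. Ccnd1 was 6.5-fold lower in ID2 than in LAC (log2 fold change -2.70, SE 0.40, adjusted p = 0.000152). This call was kept in all 6 fits that left out 1 library of these stages and in all 11 other alternatives, over which the log2 fold change ran from -3.29 to -2.51. The ID4 livers had 13.3, 19.3, 15.3 and 14.4 CPM, the lowest mean of any stage, 15.6 ± 2.64 CPM (SD, n = 4). Against NUL, ID4 was 3.8-fold lower (log2 fold change -1.93, SE 0.34, adjusted p = 0.00181), and this call too was kept in all 8 fits without 1 library and all 11 other alternatives.

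The fall of Ccnd1 below the NUL level at ID2 was 2.59-fold (log2 fold change -1.37, SE 0.36, adjusted p = 0.0425) and depended on single libraries and on the fit. The adjusted p was 0.0913, 0.176 or 0.141 without ID2_224, ID2_31 or ID2_39, and 0.0778, 0.0815 or 0.108 without NUL_220, NUL_226 or NUL_227. It was 0.185 without ID2_31 and ID4_15, the 2 libraries highest in pancreas genes. The call was also lost with covariates for title number (0.196), sequencing runs (0.07) or clock gene expression (0.07). Without a filter on low counts the adjusted p was 0.069, and with only the compared groups in the fit it was 0.16.

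At ID6 Ccnd1 ranged from 27 to 55.8 CPM with a median of 33.3, and none of the 6 livers overlapped with ID4. ID6_230 and ID6_232, at 55.7 and 55.8 CPM, stood above the other 4 livers, which reached 34.3 CPM. Ccnd1 was 2.49-fold higher in ID6 than in ID4 (log2 fold change 1.31, SE 0.31, adjusted p = 0.0125), and the call was kept without each of the 10 libraries in turn. With the title number range as a covariate the adjusted p was 0.0611. Over the same interval the erythroid genes were lower (5 of 6 tested called, all genes 4.64%), from 407 to 1030 CPM summed in ID4 to 53.1 to 264 CPM in ID6, and their part in the result was not tested.

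At ID8 the livers had 22.9, 35.1 and 19.1 CPM of Ccnd1, and at REG 19.6, 26.9, 14.4 and 29.9 CPM. Among the NUL livers only NUL_221, at 26.8 CPM, lies within these ranges. The log2 fold changes against NUL were -1.20 (SE 0.36, adjusted p = 0.155) at ID8 and -1.38 (SE 0.33, adjusted p = 0.134) at REG, and neither was called by edgeR. DESeq2 called both, with adjusted p of 0.0303 and 0.00511, and without NUL_221 the REG value was -1.62 with an adjusted p of 0.0277. With the clock gene covariate the REG value was -1.57 with an adjusted p of 0.0395. In order of mean level, Ccnd1 ran LAC, NUL, ID6, ID8, ID2, REG, ID4, and LAC and NUL were the only neighbours in this order whose ranges did not overlap.

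Cyclin D2 (Ccnd2, ENSMUSG00000000184, chromosome 6, 127125162 to 127152193, minus strand) moved the other way in lactation. NUL livers had 10.6, 9.24, 11.2 and 11.7 CPM and LAC livers 8.54, 6.67 and 7.55 CPM, without overlap. Ccnd2 was 1.41-fold lower in LAC (log2 fold change -0.49, SE 0.13, adjusted p = 0.0116). It was not called without LAC_213 (-0.41, adjusted p = 0.0887) or on the TPM scale, where limma on log2(TPM + 1) gave an adjusted p of 0.147. TPM is a level scaled for both transcript length and depth. From ID2 to REG the stage means lay between 8.42 and 10.3 CPM, with no call against NUL or against the stage before.

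Cyclin D3 (Ccnd3, ENSMUSG00000034165, chromosome 17, 47505051 to 47599691, plus strand) had the smallest differences between stages of the D-type cyclins. Its stage means ran from 43.9 ± 7.92 CPM in ID4 (SD, n = 4) to 54.6 ± 0.919 CPM in LAC (n = 3), and none of the 11 comparisons called it. Its log2 fold changes lay between -0.23 (ID2 against LAC, SE 0.12) and 0.19 (LAC against NUL, SE 0.12). The joint test called it only without ID4_211, at an adjusted p of 0.0461.

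Because the 3 D-type cyclins serve the same kinases, their levels were also set against each other per length. Ccnd3 was the most abundant of them in NUL, at 61.2 ± 10.3% of the summed D-type cyclin TPM (SD, n = 4), with Ccnd1 at 35.0 ± 10.5% and Ccnd2 at 3.77 ± 0.403%. In LAC the means were 55.9 ± 6.91% for Ccnd1 and 42.4 ± 6.40% for Ccnd3 (n = 3). Ccnd1 exceeded Ccnd3 in LAC_213 and LAC_240 but not in LAC_200, where they stood at 48.3% and 49.5%. The 3 LAC livers held between 48.3% and 61.8% Ccnd1 and the 4 NUL livers between 20.1% and 44.4%, so the ranges did not overlap. In ID4 Ccnd1 was at 14.2 ± 3.23% of the sum (n = 4), and at REG it was 16.6 ± 4.02% (n = 4). The summed level was 58.5 ± 8.90 TPM in NUL, 89.0 ± 13 TPM in LAC and 38.6 ± 7.15 TPM in ID4. Reads were not always assigned to 1 gene: the estimated count was more than 0.001 away from a whole number in 26 of 27 libraries for Ccnd1, 15 for Ccnd2 and 27 for Ccnd3, and in those libraries the value rests partly on how RSEM divided shared reads.

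**Figure D2:**
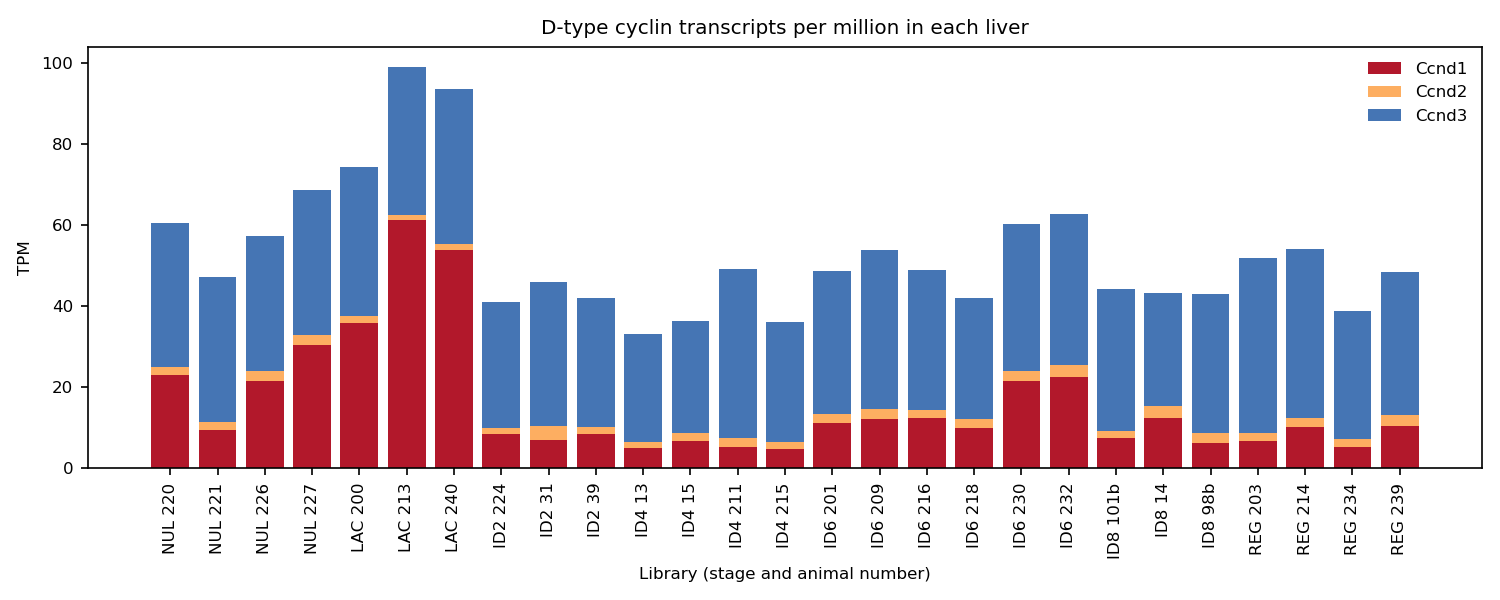
TPM of Ccnd1, Ccnd2 and Ccnd3 stacked for each of the 27 livers, with stage and animal number on the x axis. The red Ccnd1 segment makes up 48.3% to 61.8% of the bar in the 3 LAC livers and 10.7% to 18.4% in the 4 ID4 livers, while the blue Ccnd3 segment varies less.

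Cyclin E1 (Ccne1, ENSMUSG00000002068, chromosome 7, 38097984 to 38107534, minus strand), the partner of CDK2 at the start of S phase, rose together with Ccnd1 in lactation. Its promoter is shown because it is the one cyclin of this group that was called in the joint test and has an entry in the RefSeq promoter table (GRCm38.p6). The stretch is chr7:38107535-38107740 on the minus strand, printed 5′ to 3′ and ending at the base before the most upstream transcript start in GENCODE. The sequence is that of the reference strain, not of BALB/c, and capitals mark each GGGCGG, the GC box bound by SP1, on either strand.
Ccne1: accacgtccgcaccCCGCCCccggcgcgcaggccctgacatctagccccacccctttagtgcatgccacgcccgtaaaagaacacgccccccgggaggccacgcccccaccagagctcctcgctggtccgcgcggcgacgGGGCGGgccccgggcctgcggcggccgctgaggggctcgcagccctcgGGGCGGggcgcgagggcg
The capitals mark 3 matches in the printed stretch. In the 250 bases before its RefSeq start, a window that ends elsewhere, Ccne1 held 4 matches. At least 1 GGGCGG lies in the 250 bases before the start in 32.7% of 32851 RefSeq promoters. The E2F motif TTTNNCGC, searched on both strands, occurs in 4.28% of them and in none of the windows of the 5 members with an entry (Ccnd3, Ccne1, Cdkn1a, Cdkn1b and Cdkn2c). A motif match describes letters and not binding.

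Ccne1 was a low-abundance transcript, with 22 to 139 counts per library. NUL livers had 0.718, 0.61, 1.07 and 0.866 CPM and LAC livers 2.21, 2.03 and 1.96 CPM, so every LAC liver lay above every NUL liver. Ccne1 was 2.53-fold higher in LAC (log2 fold change 1.34, SE 0.33, adjusted p = 0.00723), and the call was kept in all 7 fits without 1 library and all 10 other alternatives. In ID2 it was at 1.03, 0.882 and 1.25 CPM, below the LAC livers. That difference, -0.97 on the log2 scale (SE 0.35), had an adjusted p of 0.0577 in edgeR. It was called in DESeq2 (0.0409), with limma on log2(TPM + 1) (0.0495), with the clock covariate (0.0352) and with only the compared groups in the fit (0.0175).

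A second rise of Ccne1 came at ID6, again together with Ccnd1. ID4 livers had 0.578, 0.974, 0.527 and 0.537 CPM, and ID6 livers ran from 0.488 to 2.05 CPM with a median of 1.33. The ranges overlap, since ID4_15 was high for its stage and ID6_218, at 0.488 CPM, was low. Ccne1 was 2.02-fold higher in ID6 (log2 fold change 1.01, SE 0.29, adjusted p = 0.0271). The call was lost without ID4_13, ID4_211 or ID4_215 (adjusted p 0.0881, 0.0869 and 0.0868) or ID6_209 or ID6_216 (0.0625 and 0.0643). ID8 livers had 0.777, 0.92 and 0.537 CPM and REG livers 0.571, 0.725, 0.349 and 0.547 CPM, the lowest stage mean. The difference between ID8 and ID6, -0.82 on the log2 scale (SE 0.32, adjusted p = 0.136), was called only without ID6_218 (-1.0, adjusted p = 0.0351).

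Cyclin E2 (Ccne2, ENSMUSG00000028212, chromosome 4, 11191351 to 11204779, plus strand) stood at 0.871 ± 0.242 CPM in ID6 (SD, n = 6) and up to 1.45 ± 0.343 CPM in LAC (n = 3), with overlap between all neighbours in the order of means. None of the 11 comparisons called it. The LAC value against NUL was 0.43 on the log2 scale (SE 0.25, adjusted p = 0.317). Its counts ran from 44 to 104 per library and were more than 0.001 away from a whole number in 22 of 27. The joint test called it on log2(TPM + 1) with limma, at an adjusted p of 0.0351, and without ID6_218, at 0.0401.

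The p21 gene Cdkn1a (ENSMUSG00000023067, chromosome 17, 29090976 to 29100727, plus strand) had its lowest stage means at ID2 and ID8 and its highest at ID6. It is a target of p53, and the stretch before its most upstream annotated start is shown because it holds a p53 element. It spans chr17:29090729-29090975 on the plus strand of GRCm38.p6 (RefSeq, reference strain), 5′ to 3′. Capitals mark the 20 bases of the element, which is a pair of 10-base half-sites with no gap, found with at most 1 mismatch.
Cdkn1a: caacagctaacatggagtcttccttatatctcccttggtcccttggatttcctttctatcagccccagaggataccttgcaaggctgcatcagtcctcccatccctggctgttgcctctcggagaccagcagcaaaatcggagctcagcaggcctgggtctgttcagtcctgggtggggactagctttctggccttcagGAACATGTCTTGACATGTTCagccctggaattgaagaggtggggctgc
The first capital lies 48 bases before that start. Cdkn1a also has a second promoter entry, chr17:29093519-29093818, in which the same search found no p53 element. It found an element in 0.0761% of the 32851 promoters, 25 of them, and in no window of the other 4 members with an entry.

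Cdkn1a measured 37.8, 28.6, 46.2 and 36.8 CPM in NUL and 24.4, 43.0 and 37.7 CPM in LAC, overlapping ranges. In ID2 it measured 22.6, 13.9 and 15 CPM, each below every NUL and LAC liver. Cdkn1a was 2.04-fold lower in ID2 than in LAC (log2 fold change -1.03, SE 0.34, adjusted p = 0.042). Against NUL the log2 fold change was -1.12 (SE 0.32) with an adjusted p of 0.0599 in edgeR. It was called in DESeq2 (0.0123), with limma on log2(TPM + 1) and log2(TPM + 0.1) (0.0337 and 0.0365) and with only the compared groups in the fit (0.0351). The call against LAC was lost without ID2_31 or ID2_39 (adjusted p 0.154 and 0.135) or LAC_213 or LAC_240 (0.169 and 0.0967), and without ID2_31 and ID4_15 together (0.168).

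By ID4 Cdkn1a was at 31, 37.7, 25.9 and 45.5 CPM, above all ID2 livers, although the log2 fold change 1.03 (SE 0.32) had an adjusted p of 0.119 in edgeR and 0.0357 in DESeq2. In ID6 it reached 58.6 CPM, with a median of 51.8 and a low value of 20.5 CPM in ID6_230. ID8 livers had 19.0, 11.1 and 26.1 CPM. Cdkn1a was 2.42-fold lower in ID8 than in ID6 (log2 fold change -1.27, SE 0.31, adjusted p = 0.0239). This call was lost without ID6_209 (0.0506), ID8_101b (0.106) or ID8_14 (0.0889), and with the title number range as a covariate the value was -0.98 with an adjusted p of 0.302. REG livers had 20.4, 25.1, 21.4 and 23.4 CPM, all below the NUL livers, but the difference (log2 fold change -0.73, SE 0.29) was not called (adjusted p = 0.558).

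Circadian clock genes, whose expression changes with the hour of the day, also differed between stages. The mean log2 CPM of 10 day-arm clock genes minus that of 6 night-arm genes was -1.62 to 0.18 in ID2 and -2.42 to -1.35 in ID8, against -3.89 to -2.32 in NUL, -3.61 to -2.89 in ID6 and -3.13 to -1.72 in LAC. It was -2.65 to -1.55 in ID4, where Cdkn1a was at 25.9 to 45.5 CPM, and -2.75 to -1.38 in REG. With this clock difference as a covariate, the joint test of Cdkn1a had an adjusted p of 0.131. The log2 fold change in ID2 against LAC was then -0.87 (adjusted p = 0.211), where it was -1.03 without the covariate. In ID8 against ID6 it was -1.15 (SE 0.36, adjusted p = 0.0701), where it was -1.27 without it. The labels used here give no hour of collection.

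The p57 gene Cdkn1c (ENSMUSG00000037664, chromosome 7, 143458339 to 143461050, minus strand), an imprinted inhibitor, was highest at ID2. NUL livers had 8.02, 6.02, 8.72 and 6.28 CPM and LAC livers 7.09, 5.85 and 8.85 CPM, and ID2 livers had 13.4, 10.2 and 9.71 CPM, above all of them. Cdkn1c was 1.53-fold higher in ID2 than in LAC (log2 fold change 0.61, SE 0.18, adjusted p = 0.0205) and 1.53-fold higher than in NUL (0.61, SE 0.17, adjusted p = 0.0397). It then stood at 9.88, 7.20, 11.1 and 8.46 CPM in ID4 and at 4.87 to 8.21 CPM in ID6, with a median of 6.49. The fall from ID4 to ID6 was 1.41-fold (log2 fold change -0.49, SE 0.14, adjusted p = 0.0279).

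Each of these Cdkn1c calls depended on single libraries and on the scale. Without ID2_224 the adjusted p was 0.137 against LAC and 0.227 against NUL. The call against LAC was also lost without LAC_200 or LAC_213 (0.0607 and 0.134), the call against NUL without ID2_31, ID2_39, NUL_221 or NUL_227 (0.0662, 0.0644, 0.117 and 0.105), and the call for ID6 without ID4_13, ID4_211 or ID6_209 (0.093, 0.127 and 0.0741). With limma on log2(TPM + 1) none of the 3 was called, at adjusted p of 0.103, 0.299 and 0.336, and with the clock covariate none was called either (0.131, 0.373 and 0.0793).

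The p27 gene Cdkn1b (ENSMUSG00000003031, chromosome 6, 134920401 to 134925513, plus strand) hardly varied. Stage means lay between 15.9 ± 0.139 CPM in ID8 (SD, n = 3) and 17.9 ± 1.26 CPM in ID6 (n = 6), and all log2 fold changes lay between -0.17 and 0.14. No comparison called it, in edgeR or in any alternative.

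The INK4 inhibitor p18 (Cdkn2c, ENSMUSG00000028551, chromosome 4, 109660876 to 109667189, minus strand) was higher in lactation and on days 2 and 4 after weaning than in nulliparous liver. NUL livers had 4.00, 3.86, 5.04 and 3.94 CPM and LAC livers 7.38, 8.51 and 8.47 CPM. Cdkn2c was 1.93-fold higher in LAC (log2 fold change 0.95, SE 0.17, adjusted p = 0.000526), and the call was kept in all 7 fits without 1 library and all 10 other alternatives. ID2 livers had 7.48, 6.26 and 6.58 CPM and ID4 livers 5.56, 7.15, 6.33 and 5.76 CPM, still above all 4 NUL livers. The log2 fold changes against NUL were 0.69 (SE 0.17, adjusted p = 0.0224) at ID2 and 0.56 (SE 0.16, adjusted p = 0.0401) at ID4.

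Those later calls of Cdkn2c depended on single libraries and on the fit. At ID2 the adjusted p was 0.103 or 0.0728 without ID2_224 or ID2_39, and 0.052, 0.0608 or 0.0595 without NUL_220, NUL_221 or NUL_227. At ID4 it was 0.053, 0.122, 0.079 or 0.0567 without ID4_13, ID4_15, ID4_211 or ID4_215, and 0.0886, 0.1 or 0.103 without NUL_220, NUL_221 or NUL_227. With the title number covariate the adjusted p was 0.11 at ID2 and 0.095 at ID4, and with the clock covariate 0.23 and 0.058. The ID4 call was also lost without a filter (0.052) and without ID2_31 and ID4_15 together (0.14). ID8 livers stood at 6.68, 5.45 and 6.73 CPM, with a log2 fold change against NUL of 0.58 (SE 0.17) and an adjusted p of 0.125. At ID6 and REG the ranges overlapped with NUL.

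Myc (ENSMUSG00000022346, chromosome 15, 61985391 to 61990374, plus strand) was called in the joint test (adjusted p = 0.00499) but in none of the 11 comparisons. Relative to the mean, its spread between animals was the widest of the 10 genes in ID8 and REG, but not in NUL or ID4. It measured 1.83, 2.50, 3.66 and 2.25 CPM in NUL, 3.91, 2.27 and 5.26 CPM in LAC, 1.85, 3.68 and 1.66 CPM in ID2 and 1.44 to 1.83 CPM in ID4. In ID6 it ran from 0.991 to 4.08 CPM with a median of 1.94. ID8 livers had 17.7, 3.84 and 2.67 CPM, where the high liver is ID8_101b, and REG livers had 1.89, 10.2, 26.0 and 9.56 CPM, where the low liver is REG_203 and the high one REG_234. The coefficient of variation between animals was 104% in ID8 and 85.1% in REG, against 10.4% in ID4.

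At REG Myc was 4.66-fold higher than in NUL (log2 fold change 2.22, SE 0.64, adjusted p = 0.287, not called), with 3 of the 4 livers above all NUL livers. DESeq2 called it, at an adjusted p of 0.0496. Without REG_234 the log2 fold change was 1.5, and without REG_203 it was 2.58. At ID8 it was 1.64 against NUL (SE 0.67, adjusted p = 0.302) and 1.85 against ID6 (SE 0.60, adjusted p = 0.0805). DESeq2 called the difference from ID6 (1.87, SE 0.60, adjusted p = 0.0295). Without ID8_101b the edgeR values were 0.35 and 0.56, so the ID8 level rests on that animal. With the number of sequencing runs as a covariate the joint test had an adjusted p of 0.0898.

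Read by comparison, LAC against NUL called 4 of the 10 genes where 11.2% of all genes tested were called, with Ccnd1, Ccne1 and Cdkn2c higher and Ccnd2 lower. Over all genes 5.19% were higher and 6.0% lower. ID2 against LAC called 3 (all genes 16.1%), with Ccnd1 and Cdkn1a lower (all genes 7.64%) and Cdkn1c higher (8.48%). ID6 against ID4 called 3 (all genes 8.53%), with Ccnd1 and Ccne1 higher (3.89%) and Cdkn1c lower (4.64%). ID8 against ID6 called Cdkn1a alone, as lower, where 4.12% of all genes were called, 1.75% lower and 2.37% higher. ID2 against NUL called 3 (all genes 3.24%), with Cdkn1c and Cdkn2c higher (2.32%) and Ccnd1 lower (0.919%). ID4 against NUL called 2 (all genes 4.25%), with Cdkn2c higher (2.64%) and Ccnd1 lower (1.61%).

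The edgeR test called none of the 10 genes in ID6, ID8 or REG against NUL, where 1.08%, 0.499% and 0.0852% of all genes were called, nor in ID4 against ID2 (1.49%) or REG against ID8 (0.0487%). Of all genes, 0.402% were higher and 0.682% lower in ID6 against NUL, 0.359% and 0.14% in ID8 against NUL, 0.0243% and 0.0609% in REG against NUL, 0.645% and 0.84% in ID4 against ID2, and 0.0304% and 0.0183% in REG against ID8. At an unadjusted p under 0.05 the counts in these comparisons were 3, 5, 4, 2 and 1, where the shares of all genes were 11.9%, 12.8%, 7.17%, 13.9% and 9.02%. DESeq2 called 0, 1, 2, 1 and 0 of the 10 in the same order, and 2.75%, 1.63%, 0.467%, 3.57% and 0.456% of the genes to which it gave an adjusted p. The median log2 fold change of the 10 genes was 0.309 in LAC against NUL and -0.246 in ID2 against LAC, where the medians of all genes were -0.009 and 0.015.

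**Figure D3:**
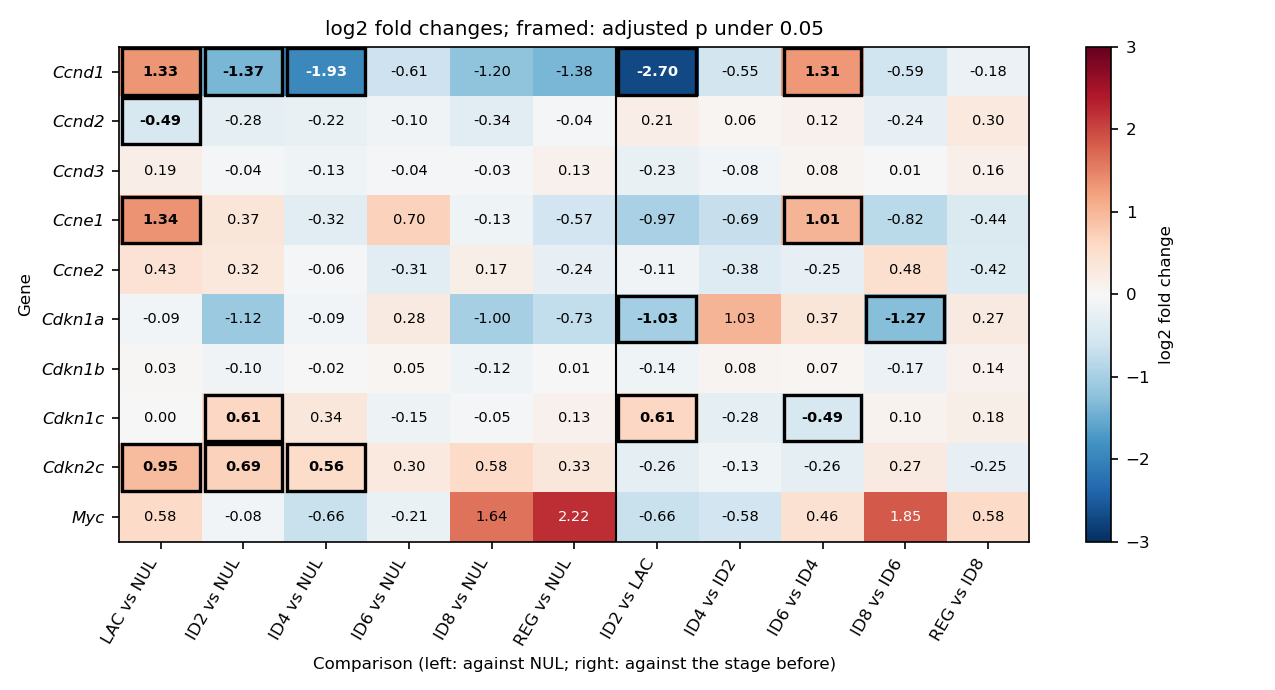
log2 fold change of each gene (y axis) in the 6 comparisons against NUL and the 5 comparisons against the stage before (x axis), with colour and number giving the value. Frames mark an adjusted p under 0.05: 5 of the 16 frames belong to Ccnd1, and Ccnd3, Ccne2, Cdkn1b and Myc have none.

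**Figure D4:**
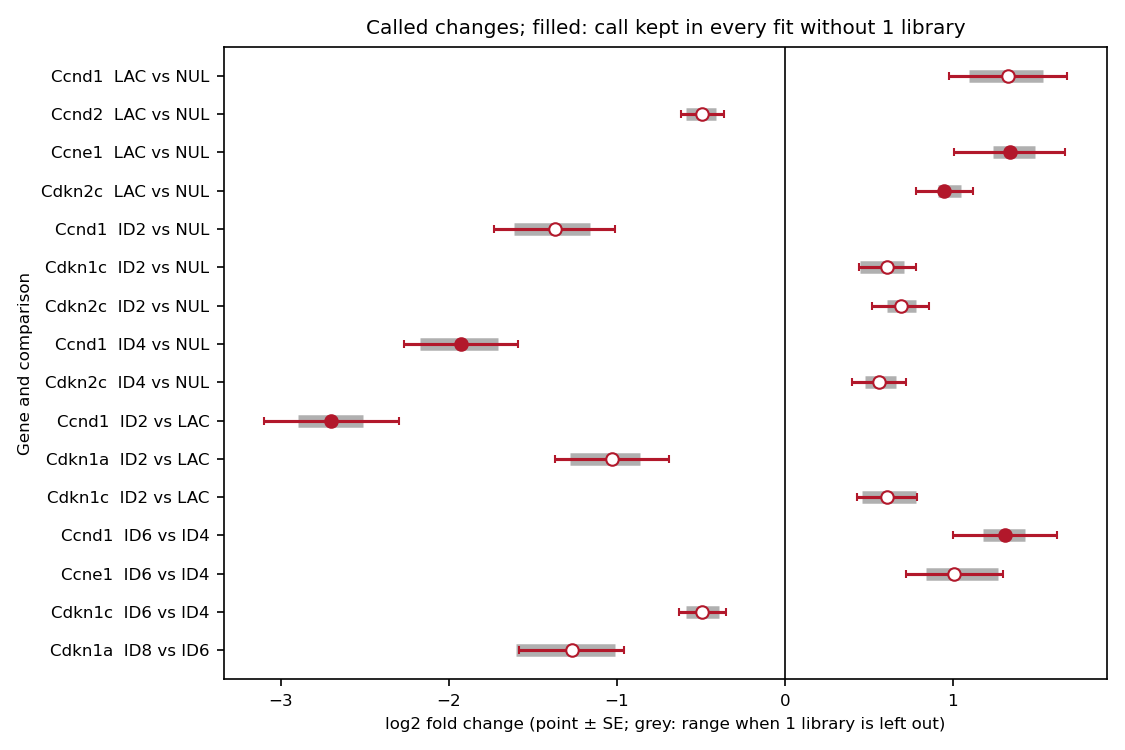
The 16 called changes as log2 fold change (x axis, point with SE) by gene and comparison (y axis), with the range over fits that leave out 1 library in grey. Filled points kept the call in every such fit: Ccne1 and Cdkn2c in LAC against NUL, and Ccnd1 in ID4 against NUL, ID2 against LAC and ID6 against ID4.

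Downstream of the G1 cyclins, all 12 genes of a list of later cyclins and mitosis markers were higher in LAC than in NUL (all genes 5.19%), with a median log2 fold change of 1.69. Over all genes tested the median was -0.009. Ccna2 (cyclin A2) averaged 1.44 ± 0.356 CPM in NUL (SD, n = 4) and 5.86 ± 1.34 CPM in LAC (n = 3). Its log2 fold change was 2.02, with SE 0.32 and adjusted p = 0.000116. Aurkb, Plk1 and Birc5, which act in chromosome segregation, rose by 1.98, 1.85 and 1.53 on the same scale. In ID2 against LAC 8 of the 12 were lower (all genes 7.64%), with a median of -1.43, and 5 were lower without ID2_224. The summed level of the list was 14.4 to 30.0 CPM in NUL, 55.0 to 77.2 CPM in LAC and 19.7 to 38.4 CPM in ID2, so LAC overlapped with neither.

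In ID6, where Ccnd1 and Ccne1 were higher than in ID4, edgeR called none of the 12 mitosis genes against ID4, and their median log2 fold change was -0.66. Their summed level was 11.4 to 17.1 CPM in ID6 and 15.2 to 21.4 CPM in ID4. At an unadjusted p under 0.05, 6 of the 12 were lower and 0 higher (all genes 11.3% and 11.6%), and DESeq2 called 2 lower (all genes 6.88%). In the same comparison 2 of 10 CDK and CDK-activating genes were higher (all genes 3.89%; 1 without ID4_211). They were Cdk2, the cyclin E partner, and Cdk7, a CDK-activating kinase, both named after their values were seen. Of 13 pocket proteins and E2F factors 1 was higher, E2f4 (0.44, SE 0.09, adjusted p = 0.00222), and 1 lower. The lower call was lost without ID4_13, ID4_15, ID4_211, ID6_209, ID6_230 or ID6_232, and there were 2 without ID6_218. The difference between the lactation and ID6 contrasts was not tested.

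Of 10 CDK and CDK-activating genes, 3 rose in LAC against NUL (all genes 5.19%), with a list median of 0.23, and these were Cdk1 (log2 fold change 1.94, SE 0.30, adjusted p = 8.59e-05), the mitotic kinase, and the phosphatases Cdc25a (0.63) and Cdc25c (3.15). The same 3 were lower in ID2 against LAC (all genes 7.64%). The joint test called 6 of the 10, and 27% of all genes. Cdk6, a partner of D-type cyclins, had values of 0.32 in LAC against NUL (adjusted p = 0.283) and -0.08 in ID2 against LAC (adjusted p = 0.835). Of 13 pocket proteins and E2F factors, 2 rose in LAC (all genes 5.19%), E2f1 (0.79, SE 0.25, adjusted p = 0.0409) and E2f2 (1.16, SE 0.34, adjusted p = 0.0304). That count was 0 without LAC_200 or LAC_213 and 1 without LAC_240, NUL_220, NUL_221 or NUL_226. In ID2 against LAC 1 was higher and 2 were lower (all genes 8.48% and 7.64%). The higher one was Rbl2, the p130 pocket protein of quiescent cells (0.49, SE 0.10, adjusted p = 0.00137), and E2f2 was among the lower ones (-1.17, SE 0.38, adjusted p = 0.0373). The count of lower genes was 0 without ID2_224, ID2_31 or LAC_213, 1 without ID2_39 or LAC_200 and 4 without LAC_240.

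Of 20 E2F target genes of DNA replication, the joint test called 14, where it called 27% of all genes. In LAC against NUL 3 of the 20 were called higher (all genes 5.19%), among them Mcm6 (0.92, SE 0.26, adjusted p = 0.0181), a subunit of the replicative helicase, and the list median was 0.37. The count was 0 without LAC_240 or NUL_226 and 1 without LAC_200 or NUL_227. In ID2 against LAC 3 were higher and 1 lower (all genes 8.48% and 7.64%), with Tk1 (thymidine kinase, 0.51) and Uhrf1 (a reader of hemimethylated DNA, 1.3, SE 0.45, adjusted p = 0.0473) among the higher ones. The count of 3 was 1 without ID2_39, LAC_200 or LAC_213, and the 1 lower call was lost without ID2_224, ID2_31, ID2_39, LAC_200 or LAC_240.

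Of 11 other inhibitors and atypical cyclins, 2 rose in LAC against NUL (all genes 5.19%): Cdkn2d, the INK4 inhibitor p19 (0.62, SE 0.18, adjusted p = 0.0243), and Ccng1, which is also on the p53 list (0.32, SE 0.08, adjusted p = 0.0104). The count was 1 without LAC_200, LAC_213, LAC_240 or NUL_220. By edgeR none of 11 genes for degradation of G1 regulators was called in LAC against NUL or ID2 against LAC, where 0 and 4 were under an unadjusted p of 0.05 (all genes 23.6% and 29.1%) and DESeq2 called 0 and 1 (all genes 12.4% and 18.6%). In ID6 against ID4 1 of the 11 was higher and 1 lower (all genes 3.89% and 4.64%). Cks1b, a subunit of the ligase that targets p27, was the higher one (1.01, SE 0.21, adjusted p = 0.00372). Fbxo31, an F-box protein, was lower (-0.42, SE 0.11, adjusted p = 0.0213), a call lost without ID4_13 or ID4_215. Cks1b alone was lower in ID8 than in ID6 (all genes 1.75%; -1.0, SE 0.23, adjusted p = 0.0158), although not without ID8_101b or ID8_98b (list count 0).

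Cdkn1a is a classical p53 target, and other p53 targets were set beside it. In LAC against NUL 3 of 19 rose (Bax, Ccng1 and Aen; all genes 5.19%), and the Cdkn1a log2 fold change was -0.09 (SE 0.31, adjusted p = 0.901). In ID2 against LAC, where Cdkn1a was lower, 3 of 19 were lower and 1 higher (all genes 7.64% and 8.48%), with Bax at -0.74 (SE 0.12), Aen at -0.72 (SE 0.13) and Sesn2 at 0.35 (SE 0.10). In ID6 against ID4, where Cdkn1a had a log2 fold change of 0.37 and was not called (SE 0.26, adjusted p = 0.446), 3 of 19 were lower and none higher (all genes 4.64% and 3.89%). Ccng1 (-0.32, SE 0.07) and Sesn2 (-0.32, SE 0.08) were among the 3, and limma on log2(TPM + 1) called 1 of 19 lower (all genes 1.8%). In ID8 against ID6, where Cdkn1a was again lower, 3 of 19 were lower (all genes 1.75%), Bax, Sesn2 and Aen (-0.37, -0.32 and -0.46). The list medians were 0.34, -0.14, -0.32 and -0.24 in these comparisons. The count in ID8 against ID6 was 0 without ID6_209, ID6_232, ID8_101b, ID8_14 or ID8_98b and 1 without ID6_216, and the Sesn2 call in ID2 against LAC was lost without ID2_224, ID2_39, LAC_213 or LAC_240.

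The genes around MYC were set beside Myc. Among 12 partners and antagonists edgeR called only Mycl, a MYC paralog, in LAC against NUL (1.18, SE 0.25, adjusted p = 0.00321) and in ID8 against ID6 (1.24, SE 0.22, adjusted p = 0.00386), where 5.19% and 2.37% of all genes were higher. Without NUL_227 the count in LAC against NUL was 2. In ID6 against ID4 Mycl alone was lower (all genes 4.64%; -0.7, SE 0.21, adjusted p = 0.0381), a call lost without any 1 of the 4 ID4 libraries or without ID6_201, ID6_209 or ID6_232. Mycl was at 14.7 to 17.6 CPM in ID8, above its range in every other stage, while Myc in the same 3 livers ran from 2.67 to 17.7 CPM. Of 15 MYC target genes of growth, 4 were lower in ID2 than in LAC (all genes 7.64%), among them the nucleolar genes Nop56 (-0.77, SE 0.18, adjusted p = 0.00434) and Nop58 (-0.76, SE 0.20, adjusted p = 0.0109). In ID6 against ID4 3 of the 15 were higher and 1 lower (all genes 3.89% and 4.64%). Nop56 and Nop58 were higher (0.70 and 0.71), and Hspd1, a mitochondrial chaperonin, was lower (-0.27, SE 0.08, adjusted p = 0.0285). The Hspd1 call was lost without ID4_211, ID4_215, ID6_209 or ID6_218, and limma on log2(TPM + 0.1) called 6 of the 15 higher (all genes 8.42%). Nop56 and Nop58 were lower in ID8 than in ID6 (-0.70 and -0.73; all genes 1.75%), where the Myc log2 fold change was 1.85, not called by edgeR. The count of 4 in ID2 against LAC was 0 without LAC_213, 1 without ID2_31 and 2 without ID2_224 or LAC_200. The count of 2 in ID8 against ID6 was 0 without ID8_98b and 1 without ID8_101b.

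Upstream, 5 of 24 tested genes of mitogen input to cyclin D were lower in LAC than in NUL and none was higher (all genes 6.0% and 5.19%), and 3 were lower without NUL_226. They included Stat5a (-0.79, SE 0.14, adjusted p = 0.000419) and Stat5b (-0.40, SE 0.11, adjusted p = 0.0169), transcription factors of prolactin and growth hormone signalling. In ID2 against LAC 6 of 24 were higher (all genes 8.48%), with the receptors Prlr at 0.48 (SE 0.11) and Ghr at 0.63 (SE 0.12). Ccnd1 itself was higher in LAC against NUL and lower in ID2 against LAC. Of 10 WNT targets of the pericentral zone, 5 were lower in LAC against NUL (3 without LAC_200; all genes 6.0%), with Lect2 at -1.37 (SE 0.13), Cyp2e1 at -1.49 (SE 0.20) and Lgr5 at -1.87 (SE 0.40). Of 15 FOXO target genes 2 were lower in LAC (all genes 6.0%), including Txnip (-0.62, SE 0.16, adjusted p = 0.0137). The FOXO count was 1 without any 1 of the 3 LAC libraries or without NUL_220, NUL_226 or NUL_227.

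**Figure D5:**
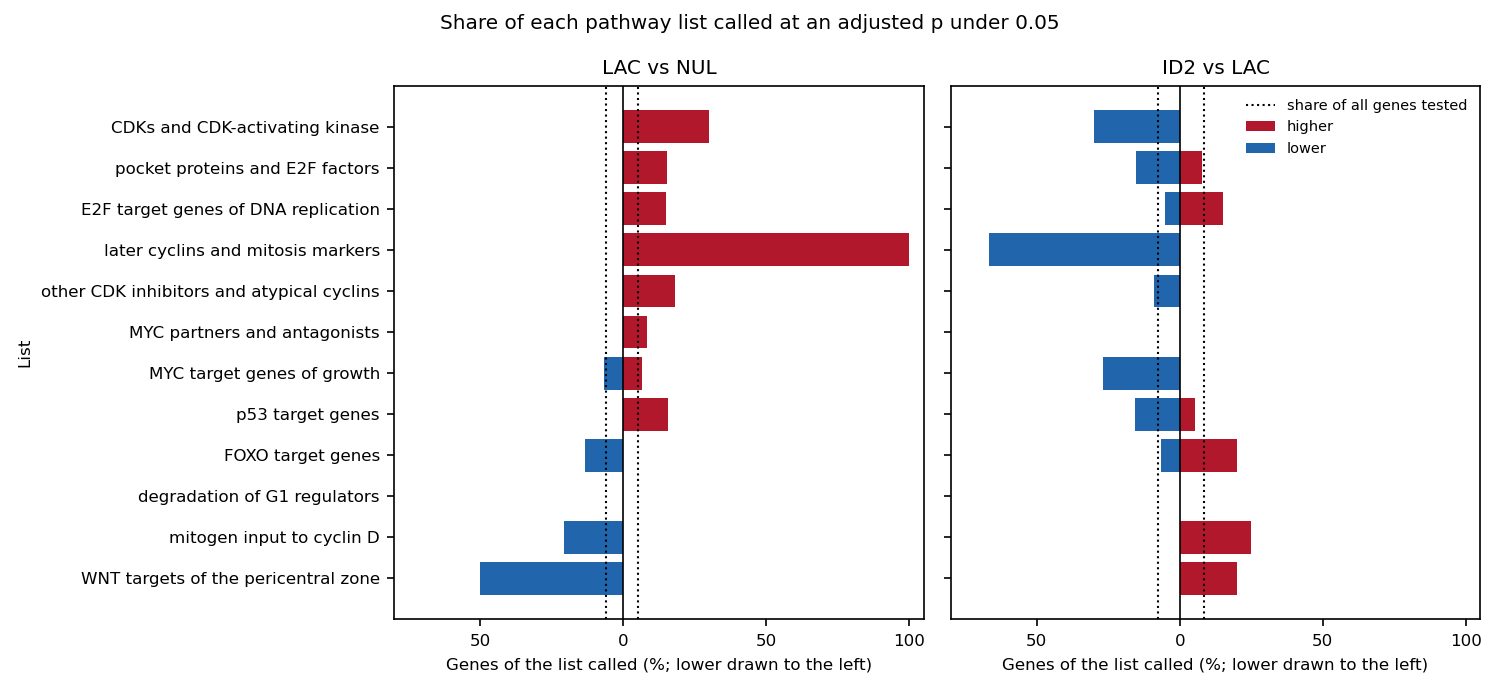
Share of each list's tested genes called at an adjusted p under 0.05 (x axis, percent, lower drawn to the left and higher to the right) in LAC against NUL and ID2 against LAC, with dotted lines for the share of all genes. The later cyclins and mitosis markers reach 12 of 12 higher in LAC against NUL and 8 of 12 lower in ID2 against LAC.

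Markers of other liver cell types moved in the same comparisons, and their part in the results was not tested. Of 8 hepatocyte genes, 2 were higher in LAC than in NUL and 1 was lower (all genes 5.19% and 6.0%), with a list median of 0.14. The higher ones were Alb (0.98, SE 0.14, adjusted p = 5.48e-05) and Serpina1a, and the lower one was Pck1 (-1.36, SE 0.42, adjusted p = 0.0427). The summed level of the 8 genes was 187000 to 232000 CPM in LAC and 98100 to 127000 CPM in NUL, of which Alb averaged 177000 and 89800 CPM. In LAC against NUL 5 of 7 Kupffer cell genes and 3 of 7 stellate cell genes were lower, 1 of 7 endothelial cell genes was lower (all genes 6.0%), and edgeR called 0 of 6 erythroid genes (0 at an unadjusted p under 0.05 and 0 by DESeq2, summed level 768 to 1020 CPM in LAC and 335 to 713 CPM in NUL). In ID2 against LAC 4 of 7 Kupffer cell genes and 4 of 7 endothelial cell genes were higher (all genes 8.48%). In ID8 against ID6 4 of 7 Kupffer cell genes and 4 of 6 erythroid genes were lower (all genes 1.75%).

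For each gene called in the joint test, the 3 genes with the closest profile over the 27 livers were named by Pearson's r of log2 CPM, as a description. The points share library and stage. For Ccnd1 they were Gopc (r = 0.878), Txnrd1 (0.854) and Vars (0.841), and without the 2 libraries farthest from the Ccnd1 median these values were 0.785, 0.74 and 0.747. Txnrd1 encodes thioredoxin reductase and Vars the valine tRNA synthetase. Closest to Ccne1 were Myef2 (0.821), Arsb (0.805) and Nup93 (0.803), and to Ccnd2 Tspan18 (0.74), Hvcn1 (0.736) and Rims3 (0.697).

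Among the inhibitors, Cdkn1a was closest to Il1r1, the interleukin 1 receptor (r = 0.795), Spg20 (0.787) and Taf13 (0.785). Cdkn1c was closest to Sardh, a mitochondrial enzyme of one-carbon metabolism (0.808), Slc44a3 (0.779) and Abat (0.778). Closest to Cdkn2c were Morc4 (0.753), Gpc3 (0.737) and Ugt1a9 (0.73). Myc was closest to Foxq1 (0.819), Gadd45g (0.814) and Foxa2 (0.756), and without the 2 libraries farthest from the Myc median these values were 0.712, 0.686 and 0.747. Of the 8 members abundant enough to be searched as neighbours, which leaves out Ccne1 and Ccne2, none appears among the 3 closest genes of another member.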

How the data were processed

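Per the labels' protocols, frozen livers were ground, RNA was taken up in Trizol, and NEBNext Ultra reagents were used for the libraries. Per the submitters' processing notes the tools were STAR 2.6.1a and RSEM 1.3.1 and the build mm10 (GRCm38). The expected counts, which are the authors' RSEM estimates of reads per gene, and TPM, the authors' length-scaled values, were read per the file headers. Trimming, annotation and use of strand are not given in the sources used here, so overlapping and antisense genes are uncertain. The deposited readme gives 2 sequencing runs for 16 libraries and 1 run for 11.

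Symbols and positions came from GENCODE mouse release 21 on GRCm38, which holds 51633 of the 51826 identifiers. Groups and animal numbers came from sample titles. Expected counts were rounded and fitted in R 4.3.3 with edgeR 4.0.16 (filterByExpr by stage, TMM scaling, robust quasi-likelihood fit of all 27 libraries and 7 stages). This left 16428 genes, with at least 99.978% of the counts of each library. Each of 11 comparisons and a joint test of the 6 stage coefficients was adjusted over all genes by Benjamini-Hochberg and called under 0.05, two-sided. CPM is the count scaled to the TMM-adjusted library size. The p-values weigh a difference between stages against the spread between animals of the same stage, estimated from all 27 libraries. The fit was tested on simulated data.

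Alternatives were RLE scaling, DESeq2 1.42.0, no filter, limma 3.58.1 on log2(TPM + 1) and log2(TPM + 0.1), a threshold of 0.01, covariates for title number under 200, sequencing runs and the clock difference, only the compared groups, and each library left out in turn. All 10 genes are described. Of each list at most the 4 genes with the smallest joint p are named, except that Cdk2 and Cdk7 were added after their values were seen. For each member called in the joint test the 3 genes of highest r are named, where mean log2 CPM was 1 or more. The members, lists and tests were chosen with earlier results of these data known. Promoter sequences are from RefSeq (GRCm38.p6), with entries for 5 of the 10 genes.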

Additional observations from a re-analysis of the deposited data

Results flagged for a closer look

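The spread within each stage of 4 or more animals was checked for every gene, 40 stage and gene pairs in all, by the gap of the highest or lowest animal to its nearest neighbour relative to the whole range (Dixon's criterion at 95%). Chance marks about 1 in 20 such groups, and 2 were marked here.

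Ccne1 in ID4 was highest in ID4_15, at 0.974 CPM, where the other 3 livers lay between 0.527 and 0.578 CPM. Summed pancreas genes were 132 CPM in the same library. Without ID4_15 the log2 fold change of Ccne1 in ID6 against ID4 was 1.27 (adjusted p = 0.016 by edgeR). Cdkn2c in NUL was highest in NUL_226, at 5.04 CPM, where the other 3 livers lay between 3.86 and 4.00 CPM. Without NUL_226 its log2 fold change in LAC against NUL was 1.05 (adjusted p = 0.000578 by edgeR).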

How the results depend on the processing

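No called log2 fold change of the 10 genes changed sign in any alternative: of 293 values, 92 were no longer called. Of the 293, leaving out 1 library gave 122 values, with 43 no longer called.

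The number of the 10 genes called moved by more than 1.5 times as follows. At a threshold of 0.01 it was 2 in LAC against NUL, 0 in ID2 against NUL, 1 in ID4 against NUL, 1 in ID2 against LAC, 0 in ID6 against ID4 and 0 in ID8 against ID6. DESeq2 called 1 in ID8 against NUL, 2 in REG against NUL, 1 in ID4 against ID2 and 2 in ID8 against ID6. With the title number covariate the count was 1 in ID2 against NUL, 1 in ID4 against NUL and 0 in ID8 against ID6. With the clock covariate it was 0 in ID2 against NUL, 1 in ID4 against NUL, 1 in REG against NUL, 0 in ID8 against ID6 and 4 in the joint test. Without a filter it was 1 in ID4 against NUL, and with only the compared groups 0 in ID8 against ID6. The causes were not tested.

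Leaving out 1 library gave counts of 2 to 4 in LAC against NUL, 0 to 2 in ID2 against NUL, 1 to 2 in ID4 against NUL, 0 to 0 in ID6 against NUL and in ID8 against NUL, 0 to 1 in REG against NUL, 1 to 2 in ID2 against LAC, 0 to 0 in ID4 against ID2 and in REG against ID8, 1 to 3 in ID6 against ID4, 0 to 2 in ID8 against ID6 and 6 to 8 in the joint test. Without ID2_31 and ID4_15, an alternative chosen after seeing the data, the count was 1 in ID2 against NUL and 1 in ID4 against NUL.

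With limma on log2(TPM + 0.1) the calls over all genes were 485 higher and 1029 lower in LAC against NUL (852 and 985 in edgeR), 179 and 139 in ID2 against NUL (381 and 151), 225 and 284 in ID4 against NUL (434 and 264), 1384 and 293 in ID6 against ID4 (639 and 762) and 128 and 698 in ID8 against ID6 (390 and 287). The median of all genes was then 0.126 in ID6 against ID4 and -0.111 in ID8 against ID6. Calls over all genes ran from 822 at a threshold of 0.01 to 2133 in DESeq2 for LAC against NUL (1837 in edgeR), from 36 with the clock covariate to 874 in DESeq2 for ID2 against NUL (532), and from 6 with the title number covariate to 1207 in DESeq2 for ID8 against ID6 (677). By the lowest count in any library, Ccne1 (22 to 139), Ccne2 (44 to 104) and Myc (63 to 1644) are the lowest of the 10 genes. No paired analysis was possible because no animal number occurs in more than 1 group.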
